A study of Mus musculus with 8 samples.

Results

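The 40 genes described here are genes of fibroblasts and of the extracellular matrix, chosen as a fixed list of names from the 34614 protein-coding and lncRNA genes of the mm10 RefSeq annotation. For each gene 2 regions were read: the locus, which is the annotated gene with 1000 bp on either side, and the gene ends, which are the 1000 bp on either side of both annotated ends. The rule names the genes and uses no measured value, but the list was chosen with earlier results of these data known.

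The cells were mouse embryonic fibroblasts (MEFs), the connective-tissue cells that are grown from the body of mouse embryos. NOMe-seq was made from 8 libraries in 4 groups of 2. Control MEFs (day 0) and MEFs on day 1 of Etv2-induced reprogramming were each read without the GpC methyltransferase M.CviPI ("untreated" below) and with it ("treated"). Etv2 is an ETS-family transcription factor that drives endothelial and blood fates. The labels give no genotype, strain or embryo age, do not say how Etv2 was delivered, and leave it unstated if the paired libraries within a group are from different cultures. The p-values therefore measure only the spread between these libraries, which may be technical.

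M.CviPI adds a methyl group to cytosines that follow a guanine (GpC) where DNA is not wrapped on a nucleosome or held by another protein, and bisulfite sequencing then reads the mark, so that the share of methylated GpC reads is a measure of open DNA. Fibroblasts make and turn over the matrix: fibrillar collagens give tissue its tensile strength, collagens IV and VI sit in or beside basement membranes, fibrillins, fibulins and elastin form elastic fibres, and fibronectin and the thrombospondins link cells to this scaffold. Here these genes stand for the starting fibroblasts. Whether each is particular to fibroblasts was not tested.

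The assay reads DNA and not RNA, so the fibroblast label cannot be checked here against expression. Every library was shallow. It covered from 439527 to 1012656 cytosines, the median cytosine had 3 reads, and no cytosine was listed with fewer than 3. The 40 loci held from 2415 to 6419 reads per library, where each read over each cytosine counts once, and their ends only from 202 to 555. Over the loci both day 1 libraries of each treatment were deeper than those of day 0. All values below are pooled methylated reads over reads. Neighbouring cytosines are often read on the same DNA fragments, so reads are not independent molecules, and intervals of single libraries (Clopper-Pearson, 95%) cover counting error only.

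The promoter sequences show which cytosines the values rest on. RefSeq (GRCm38.p6) promoter windows, from 250 bases before to 50 after a transcription start, were matched for 25 of the 40 genes (30 windows). Inside the promoter windows of all genes every site listed in the files was a GpC not followed by G: 100% of sites in each of the 8 libraries. The 30 windows of these genes hold 1143 such cytosines, with a median of 39 per window against 34 over all 32851 windows. Only 52 of them were read in any library and 21 in a treated one. The 3 windows with at least 15 treated reads are printed below on the strand of the gene, 5′ to 3′, because they are the promoters of these genes whose opening the treated libraries read most. Capitals mark each GC whose cytosine, on either strand, was read in a treated library.
Timp2, chr11:118355362-118355661, minus strand: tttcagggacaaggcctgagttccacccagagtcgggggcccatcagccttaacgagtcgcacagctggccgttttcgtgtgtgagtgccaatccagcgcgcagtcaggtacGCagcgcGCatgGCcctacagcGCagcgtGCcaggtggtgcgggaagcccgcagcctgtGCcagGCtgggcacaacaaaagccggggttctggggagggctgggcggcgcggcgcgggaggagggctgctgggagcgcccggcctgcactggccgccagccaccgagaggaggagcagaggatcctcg
Fbln5, chr12:101818435-101818734, minus strand: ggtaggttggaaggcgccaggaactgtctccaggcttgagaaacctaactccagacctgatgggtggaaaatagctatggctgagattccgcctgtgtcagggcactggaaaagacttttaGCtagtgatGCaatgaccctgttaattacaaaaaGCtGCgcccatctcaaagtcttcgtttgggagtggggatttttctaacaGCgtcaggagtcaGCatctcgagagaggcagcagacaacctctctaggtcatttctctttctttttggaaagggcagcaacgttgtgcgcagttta
Col4a1, chr8:11312777-11313076, minus strand: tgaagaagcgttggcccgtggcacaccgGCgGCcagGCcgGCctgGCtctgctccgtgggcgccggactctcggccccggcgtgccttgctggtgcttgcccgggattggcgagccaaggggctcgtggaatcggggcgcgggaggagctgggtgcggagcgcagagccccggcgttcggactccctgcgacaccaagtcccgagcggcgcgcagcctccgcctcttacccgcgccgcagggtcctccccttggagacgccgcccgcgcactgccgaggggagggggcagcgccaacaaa

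Timp2 encodes a secreted inhibitor of matrix metalloproteinases. In its window, the second treated library of day 1 had 8 of 21 reads methylated (38.1%, interval 18.1 to 61.6) over the 7 cytosines in capitals, which lie 73 to 137 bases before the start. Each of these cytosines had 1 or 2 of 3 reads methylated. The untreated libraries of day 1 read overlapping stretches of the same promoter with 0 of 43 and 0 of 21 reads methylated. If reads were independent, this would allow levels of up to 6.98% and 14.3%. No day 0 library had a read there. Fbln5 encodes fibulin-5, which helps to assemble elastic fibres, and the window is that of an annotated start inside the gene. It had 11 of 21 reads methylated (52.4%, interval 29.8 to 74.3) in the second treated library of day 1 and no read elsewhere. The reads there ran from 1 of 4 methylated at 46 bases before the start to 3 of 4 at 95 bases before it. Col4a1 encodes a chain of collagen IV, the network-forming collagen of basement membranes, and its promoter is shared head to head with that of Col4a2. Its window had 4 of 15 reads methylated (26.7%, interval 7.79 to 55.1) in the second treated library of day 0 and no read in any other library. None of the 3 promoters was read with the enzyme on both days, so none can be compared across days.

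Over the whole loci the enzyme marked the 40 genes at the same level on both days. Pooled methylation in the treated libraries was 30.9% and 28.9% on day 0 (mean 29.9% ± 1.40, SD, n = 2) and 30.1% and 30.7% on day 1 (30.4% ± 0.436). The day 1 values lay between those of day 0. The difference was 0.446 percentage points (exact two-sided permutation test, p = 1). With 2 libraries against 2 this test cannot go below 0.33. Protein-coding loci as a whole were at 29.3% ± 0.152 and 30.5% ± 0.09999 (SD, n = 2 each).

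Without the enzyme the loci were marked far less, and less on day 1 than on day 0. Untreated levels were 2.35% and 2.19% on day 0 (2.27% ± 0.110) and 1.01% and 1.24% on day 1 (1.13% ± 0.163). Both day 1 libraries were below both day 0 libraries, by 1.14 percentage points (exact permutation test, p = 0.33). Protein-coding loci were lower too, from 2.09% ± 0.0381 to 1.02% ± 0.00468. The untreated day 1 libraries also held more reads over these loci than the day 0 ones (11968 against 5053), and the part of depth in the fall was not tested. The rise with the enzyme was 27.7 percentage points on day 0 and 29.2 on day 1. The treated change minus the untreated change was 1.59 percentage points (exact permutation of days within treated and untreated libraries, p = 0.17, where 0.056 is the smallest it can give). This value moved widely: it was 0.603 without the second treated library of day 0 and 2.58 without the first, 5.12 with the 26 genes read in every library weighted equally (exact permutation p = 0.056), and 8.02 over the 35 windows of 1 kb read in all 4 groups. Without Col6a3 it was 1.01.

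**Figure D1:**
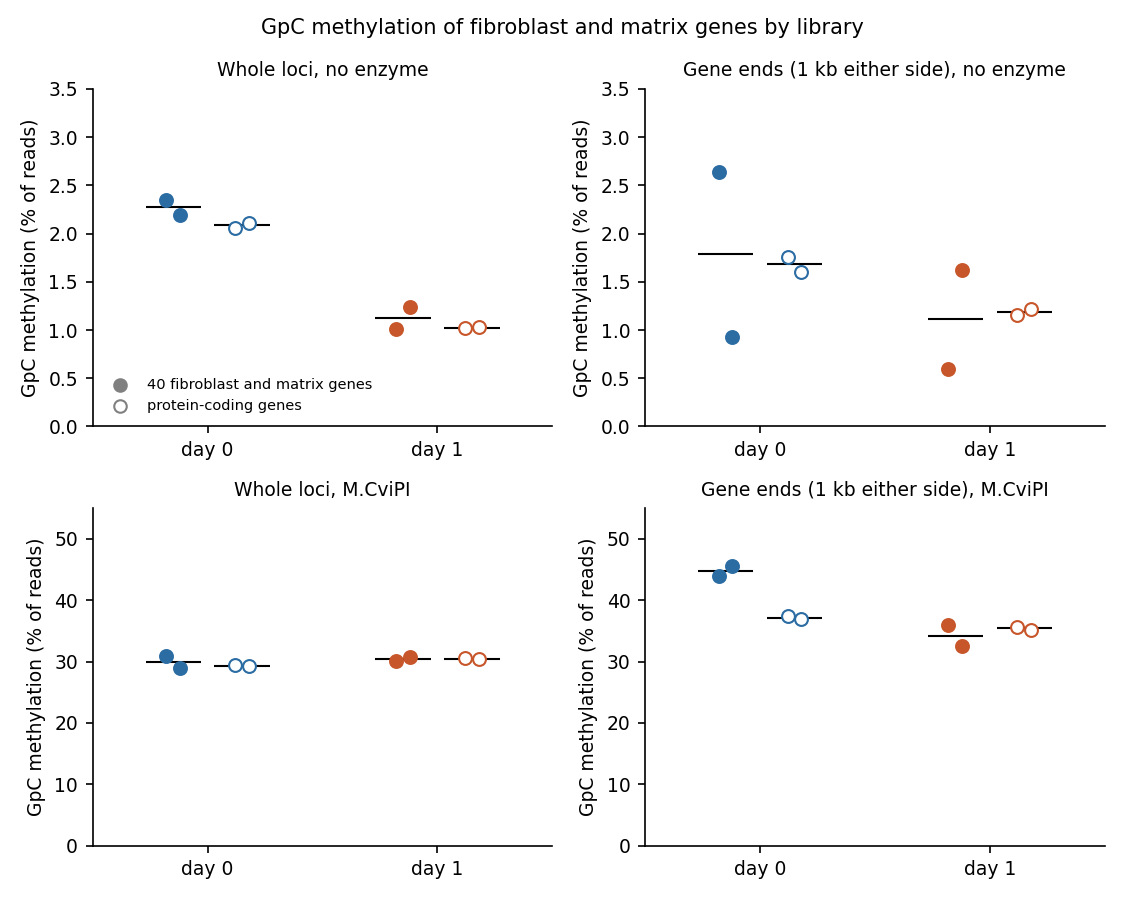
Pooled GpC methylation (% of reads) of the 40 fibroblast and matrix genes (filled) and of all protein-coding genes (open), 1 point per library with a bar at the mean of 2, for whole loci (left) and gene ends (right), without the enzyme (top, axis to 3.5%) and with it (bottom). The treated loci stayed near 30% on both days, while the treated gene ends of the 40 genes were at 44.0% and 45.5% on day 0 and at 35.9% and 32.6% on day 1.

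Within 1000 bp of the gene ends the enzyme marked the 40 genes more than over the whole loci, and less on day 1 than on day 0. The treated libraries of day 0 had 121 of 275 reads (44.0%) and 92 of 202 reads (45.5%) methylated, and those of day 1 had 83 of 231 (35.9%) and 98 of 301 (32.6%). Both day 1 libraries were below both day 0 libraries. The means were 44.8% ± 1.09 and 34.2% ± 2.38 (SD, n = 2 each), 10.5 percentage points apart (exact permutation test, p = 0.33). Protein-coding gene ends went from 37.2% ± 0.350 to 35.5% ± 0.371, and whether the 40 genes differ from them was not tested. The untreated ends were at 2.64% and 0.930% on day 0 and 0.598% and 1.62% on day 1, and overlapped. The treated change minus the untreated change was -9.85 percentage points (exact permutation test, p = 0.28).

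The cytosines behind this difference were not the same on the 2 days. The treated libraries read 150 cytosines at these ends on day 0 and 173 on day 1, and 1 cytosine was in both sets. Even the replicates shared only 2 cytosines on day 0 and 0 on day 1. Over the 12 windows of 1 kb that had treated reads on both days, the difference was -3.17 percentage points. The mean over the 2 genes with end reads in all 4 treated libraries (Col4a2 and Timp2) went the other way, by 6.89. These 2 genes disagreed, with 28.4 in Col4a2 and -14.6 in Timp2, on as few as 3 and 6 reads in a library. Within 500 bp of the ends the difference was -5.44 and the days overlapped, and within 2000 bp it was -8.66. Leaving out single genes moved it from -12.5 (without Fbn1) to -8.19 (without S100a4).

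Of the 40 genes, 17 had treated end reads on both days, 6 on day 0 alone, 9 on day 1 alone and 8 on neither. The last are Col1a1, Col3a1, Dcn, Fap, Lox, Mmp2, Pdgfra and Timp1, among them the genes of the main fibrillar collagens I and III. These are 8 of 40 genes, beside 24.9% of all annotated genes without treated end reads. The 17 genes read on both days had 162 of 395 reads methylated on day 0 (41.0%) and 99 of 320 on day 1 (30.9%). These sums count the end window that Col4a1 and Col4a2 share for both genes. Counted once it leaves 156 of 362 (43.1%) and 94 of 308 (30.5%), which is 75.9% and 57.9% of the end reads of the 40 genes. Of the 17 genes, 10 were lower on day 1 and 7 were higher, Col4a1 and Col4a2 being higher on mostly the same reads. Col4a2 had 0 of 3 and 6 of 33 treated end reads methylated on day 0 and 1 of 3 and 5 of 12 on day 1, and its days did not overlap. Without the enzyme its ends had 2 of 6 and 0 of 6 reads methylated on day 0 and 0 of 3 and 1 of 45 on day 1. The share lower, 58.8%, compares with 47.2% of the 13828 genes of the annotation with treated end reads on both days. The 6 genes read on day 0 alone (Col5a2, Col8a1, Ddr2, Eln, Thbs2 and Tnc) had 57 of 115 reads methylated (49.6%). The 9 genes read on day 1 alone (Bgn, Col1a2, Col6a2, Fbln5, Fn1, Loxl1, Lum, Postn and Tagln) had 87 of 224 (38.8%).

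**Figure D2:**
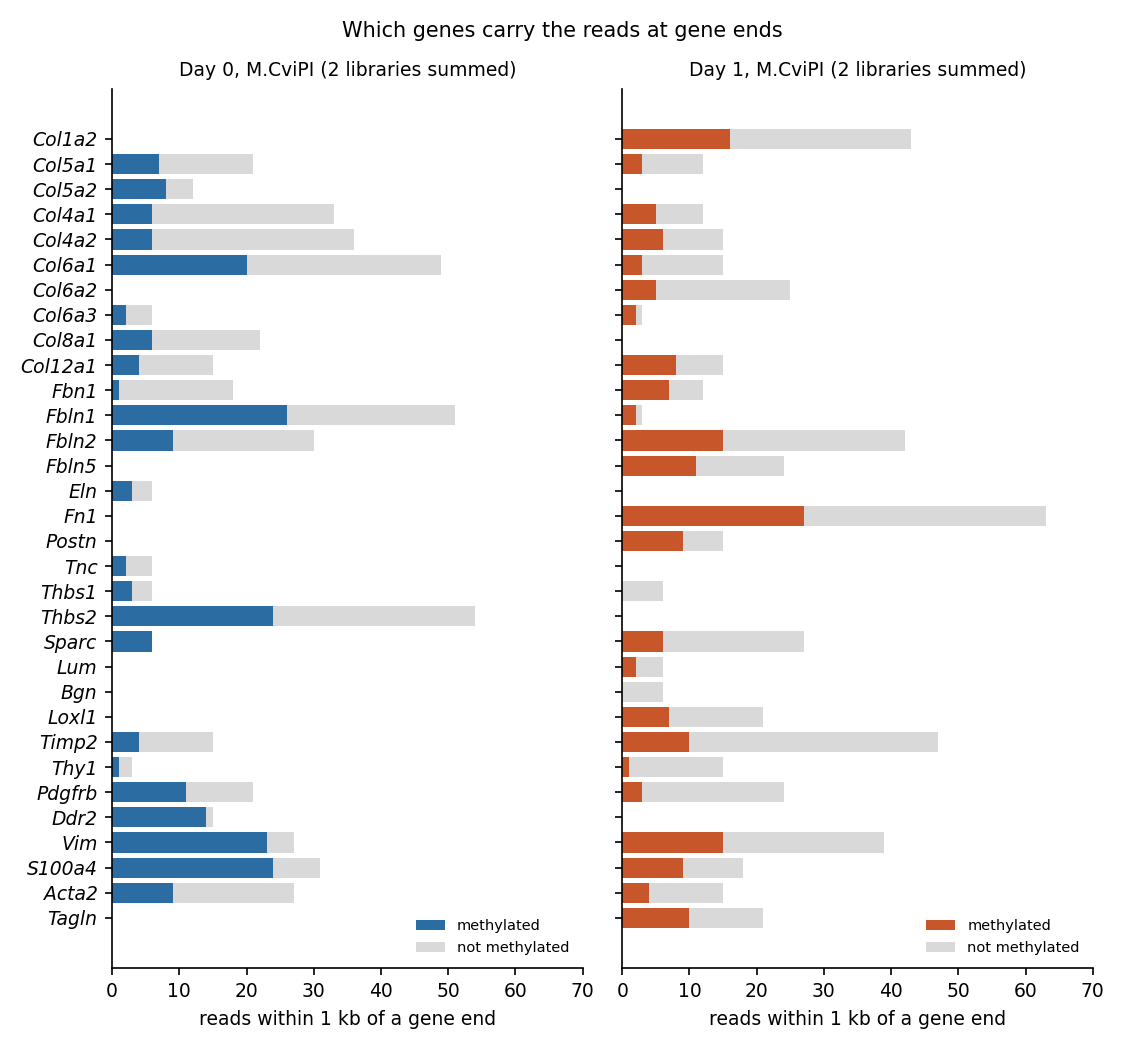
Reads within 1 kb of the ends of each gene with any treated read there (32 of 40), summed over the 2 treated libraries of day 0 (left) and day 1 (right), split into methylated (coloured) and not methylated (grey). The longest bars belong to Thbs2, Fbln1 and Col6a1 on day 0 and to Fn1, Timp2 and Col1a2 on day 1, and few genes have reads of like number on both days.

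The genes with most reads at the ends on day 0 were Thbs2, Fbln1 and Col6a1, which together held 32.3% of them. Thbs2 encodes thrombospondin-2, a matrix glycoprotein that restrains vessel growth, and had 23 of 51 treated reads methylated in the first library and 1 of 3 in the second. Fbln1 encodes fibulin-1, which binds fibronectin and elastic fibres, and had 8 of 9 (88.9%, interval 51.8 to 99.7) and 18 of 42 (42.9%, interval 27.7 to 59.0). Both day 0 libraries read 1 stretch of Fbln1 (chr15:85206060-85206181), which begins 111 bases after its first annotated start: 8 of 9 and 15 of 27 reads were methylated there. On day 1 the ends of Fbln1 had 3 reads, 2 of them methylated, and those of Thbs2 had none. Col6a1 encodes a chain of collagen VI, the beaded-filament collagen, and had 20 of 49 reads methylated in the first library of day 0 and 3 of 15 in the first of day 1.

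On day 1 the leading genes were Fn1, Timp2, Col1a2 and Fbln2. Fn1 encodes fibronectin, the adhesive glycoprotein that integrins bind, and had 19 of 39 (48.7%, interval 32.4 to 65.2) and 8 of 24 (33.3%, interval 15.6 to 55.3) treated reads methylated at its ends. Its ends had no treated read on day 0. Timp2 had 2 of 6 and 2 of 9 on day 0, and 0 of 9 and 10 of 38 on day 1. Col1a2, the second chain of collagen I, had 16 of 43 (37.2%, interval 23.0 to 53.3), all in the second library of day 1. Fbln2, a fibulin of vessel walls and basement membranes, had 9 of 30 and no read on day 0, and 14 of 27 and 1 of 15 on day 1. Without the enzyme the ends of Timp2 had 0 of 93 and 0 of 60 reads methylated on day 1, those of Fn1 had 1 of 81 and 0 of 9 on day 0 and 0 of 3 and 0 of 22 on day 1, and those of Fbln2 had 2 of 24 and 1 of 58 on day 0 and 0 of 15 and 0 of 16 on day 1. Fbln1 had 0 of 27, 0 of 6, 1 of 45 and 0 of 21 untreated end reads methylated in the 4 untreated libraries, and Thbs2 had 0 of 27 and 0 of 18 in the 2 that read it. Col6a1 had 0 of 6 and 0 of 68 in the 2 that read it. These 6 genes each held at least 10% of the end reads of some group, the shared window being counted once.

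Among genes with at least 15 treated end reads on day 0, the highest levels there were those of Ddr2, Vim and S100a4. Sparc (6 of 6 reads) and Col5a2 (8 of 12) were also high, with fewer reads. Vim encodes vimentin, the intermediate filament of mesenchymal cells. It had 23 of 27 reads methylated (85.2%, interval 66.3 to 95.8) in the first treated library of day 0. All lay at the 5′ end, in 1 stretch of 7 cytosines that begins 242 bases inside the gene. On day 1 other cytosines were read. The first treated library had 7 of 15, all at the 3′ end. The second had 8 of 24, with 5 of 9 at the 5′ end and 3 of 15 at the 3′ end. S100a4, a calcium-binding protein widely used as a fibroblast marker, had 24 of 31 (77.4%, interval 58.9 to 90.4) in the second library of day 0. In the second of day 1 it had 9 of 18. All treated end reads of S100a4 lay at the 5′ end on day 0 and at the 3′ end on day 1. Its end windows also hold a part of S100a5. Ddr2, a receptor tyrosine kinase for fibrillar collagen, had 14 of 15 (93.3%, interval 68.1 to 99.8) in the second library of day 0 and no treated end read on day 1. Each of these day 0 levels comes from 1 library. The genes were picked as the highest on day 0, a pick that itself favours lower values on day 1. Of the 17 genes with treated end reads on both days, 10 were lower on day 1 and 7 were higher. Among the higher ones, Fbn1 had 1 of 18 and then 7 of 12 reads methylated, and Col12a1 had 4 of 15 and then 8 of 15.

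Pooled by role, the cytoskeletal and contractile genes (Vim, S100a4, Acta2 and Tagln) were at 66.7% (26 of 39 reads) and 65.2% (30 of 46) at their ends on day 0 and at 42.4% (14 of 33 reads) and 24 of 60 reads on day 1. The days did not overlap, as was so for 37% of 127 single genes with 20 end reads in each treated library. Most of the methylated day 0 reads came from the 5′ ends of Vim and S100a4. On day 1 most reads of Vim and all of S100a4 were at the 3′ end, and the part of this in the difference was not tested. Acta2, smooth-muscle actin, was at 3 of 12 and 6 of 15 on day 0 and 4 of 15 on day 1, and Tagln, an actin-binding protein of contractile cells, had reads on day 1 alone (3 of 3 and 7 of 18). The receptors Thy1, Pdgfra, Pdgfrb and Ddr2 did not overlap either, with 1 of 3 and 25 of 36 methylated on day 0 and 4 of 33 and 0 of 6 on day 1. The libraries read different receptors. On day 0 the first had Thy1 alone, and the second had Ddr2 (14 of 15) and Pdgfrb (11 of 21). On day 1 the first had Thy1 (1 of 15) and Pdgfrb (3 of 18), and the second had Pdgfrb alone. The elastic-fibre genes went the other way without separating: 18 of 57 and 21 of 48 reads methylated on day 0, 21 of 42 and 14 of 39 on day 1. The glycoproteins were at 49.2% and 44.4% on day 0 and 43.5% and 28.6% on day 1, where Thbs2 gave 51 of the 63 reads of the first day 0 library and Thbs1 gave 6 of the 9 reads of the second. Fibrillar collagens had end reads in 1 treated library of each day (15 of 33 and 19 of 55). The non-fibrillar collagens were at 37.8% and 18.5% and then 36.4% and 30.0%.

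Other annotated genes reach into the end windows of 14 of the 40 genes, and Col4a1 and Col4a2 share 1917 bp of theirs, which were counted once in the pooled values. In these 14, openness at the end cannot be assigned to the named gene alone.

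The level was higher near the ends than deep inside the genes, most clearly on day 0. In the treated libraries of day 0 it was 42.7% ± 4.99 within 500 bp of an end, 45.4% ± 8.56 from 500 to 1000 bp, 35.4% ± 1.75 from 1000 to 5000 bp inside the gene, 26.7% ± 2.66 from 5000 to 20000 bp and 27.8% ± 0.405 beyond (SD, n = 2 each). On day 1 these were 37.3% ± 6.91, 31.6% ± 0.828, 31.8% ± 3.59, 30.0% ± 0.443 and 29.7% ± 0.288. The days separated in opposite directions near the ends and deep inside: both day 1 libraries were lower from 500 to 1000 bp, and both were higher beyond 5000 bp. Protein-coding genes also had day 0 above day 1 near the ends and below it deep inside, with 40.2% against 37.8% within 500 bp and 27.9% against 29.6% beyond 20000 bp. From 500 to 1000 bp, where the 40 genes separated, they were at 33.1% and 33.0% and overlapped.

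**Figure D3:**
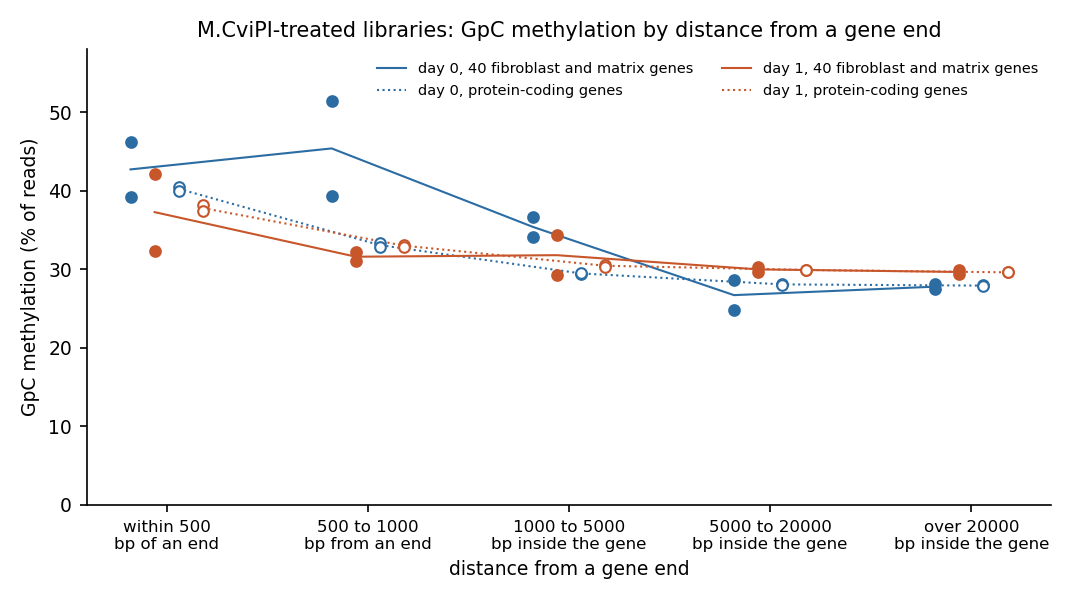
GpC methylation (% of reads) in the treated libraries by distance from the nearest gene end, for the 40 fibroblast and matrix genes (filled points, solid lines) and protein-coding genes (open points, dotted lines), with 1 point per library and lines through the means of 2. The day 0 line of the 40 genes runs from 42.7% within 500 bp to 27.8% beyond 20000 bp, and the day 1 line from 37.3% to 29.7%.

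For the 25 genes with a known strand, the 5′ ends, where transcription starts, were more open than the 3′ ends in all 4 treated libraries. The 5′ ends had 46.3% and 52.2% of reads methylated on day 0 and 43.6% and 39.0% on day 1, and the 3′ ends 34.7% and 28.2%, then 31.3% and 22.2%. The 5′ level was lower in both day 1 libraries than in both day 0 libraries (41.3% ± 3.27 against 49.2% ± 4.17, SD, n = 2 each), and the 3′ levels overlapped. The 5′ counts were 87 of 188 and 60 of 115 on day 0, and 17 of 39 and 60 of 154 on day 1. Which end was read also changed: 303 treated reads at 5′ and 111 at 3′ ends on day 0, and 193 and 168 on day 1. The part of this mix in the pooled end difference was not tested. Protein-coding genes had 41.6% and 38.3% at their 5′ ends and 30.2% and 31.9% at their 3′ ends on the 2 days. Fully methylated cytosines followed the same order. Of the end cytosines with exactly 3 reads, all 3 were methylated at 11.6% and 15.2% on day 0 and at 6.49% and 2.41% on day 1, and at 0% in each untreated library.

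At the loci, 21 of the 40 genes had at least 20 reads in each treated library and can be described one by one. In 3 of them (Fbn1, Col6a2 and Col6a3) both day 1 libraries were above both day 0 libraries, in 2 (Fbln2 and Ddr2) both were below, and in 16 the days overlapped. The 5 without overlap are 23.8% of the 21, against 35.2% of the 7731 genes of the annotation with the same reads (21.8% higher, 13.4% lower). The mean was higher on day 1 in 10 and lower in 11. The median size of the day difference was 4.71 percentage points, below the median gap between replicates on either day (5.49 and 6.93), and in 18 of 21 genes the difference was within the larger of its own replicate gaps.

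edgeR's quasi-likelihood test on methylated and unmethylated counts called no locus between the treated libraries of the 2 days (0% of 5655 loci at a Benjamini-Hochberg adjusted p under 0.05, 176 at an unadjusted p under 0.05, and 0 with limma). Of the 40 genes 18 had the 20 reads in every library that the test needs, and all had an adjusted p of 0.999. Their changes ran from -0.60 in Ddr2 to 0.92 in Col6a2 on the log2 odds scale, with a median of -0.02 against 0.10 over all loci tested.

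**Figure D4:**
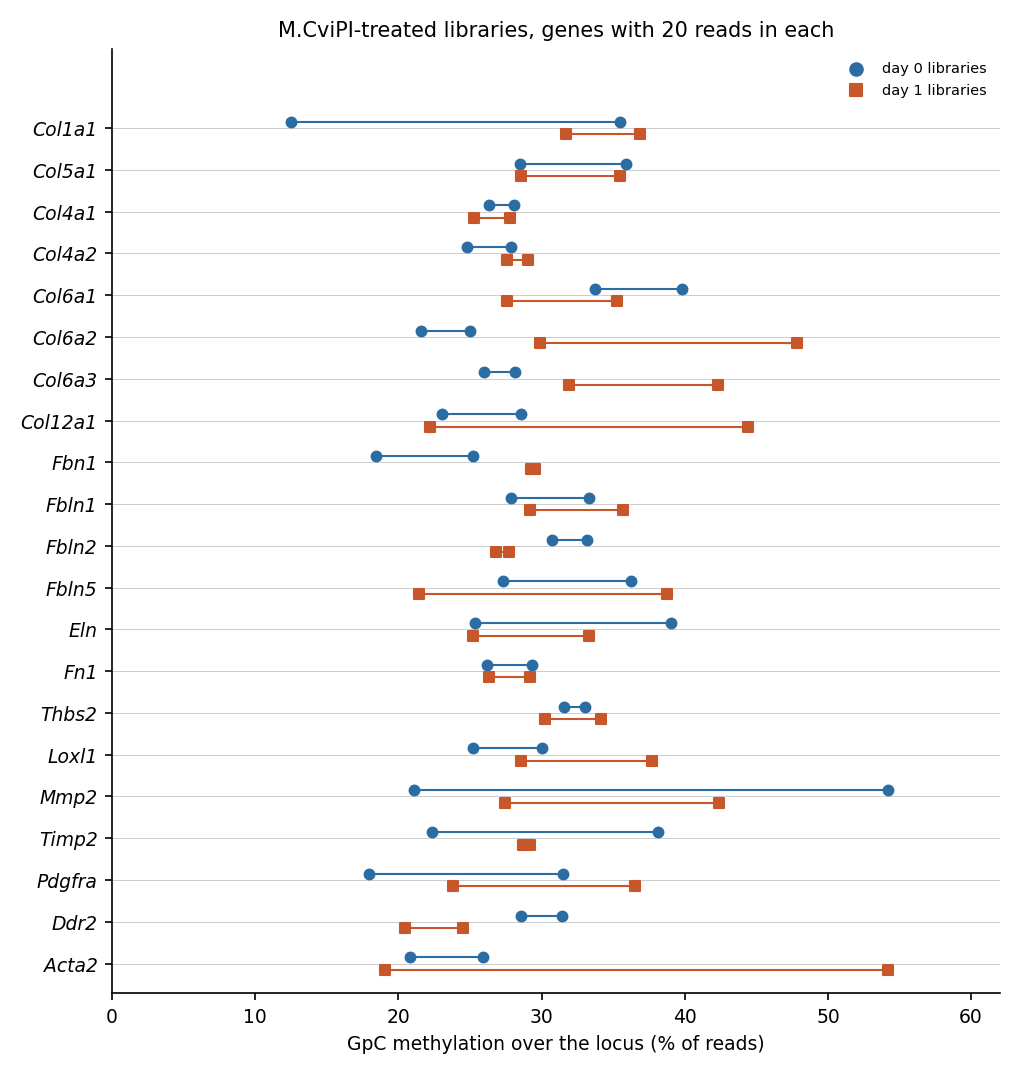
GpC methylation over the locus (% of reads) in the 4 treated libraries for the 21 genes with at least 20 reads in each, with day 0 as circles and day 1 as squares and a line joining the 2 libraries of a day. Lines of the 2 days lie apart in Fbn1, Col6a2 and Col6a3 (day 1 higher) and in Fbln2 and Ddr2 (day 1 lower), and overlap in the other 16.

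Among the fibrillar collagens, Col1a1 (chr11:94936224-94953042) encodes the main chain of collagen I. It had 22 of 62 and 5 of 40 treated reads methylated on day 0 and 33 of 104 and 42 of 114 on day 1. The first day 0 library was near the day 1 values and the second was far below. Its untreated libraries had 0 of 18 and 0 of 27 untreated reads methylated on day 0 and 0 of 60 and 0 of 42 on day 1. Col5a1 (chr2:27886381-28039510) encodes a chain of collagen V, which sets the width of collagen I fibrils. It had 102 of 284 and 110 of 386 treated reads methylated on day 0 and 120 of 338 and 188 of 658 on day 1. The 2 days spanned the same range. Its untreated libraries had 3 of 240 and 2 of 142 untreated reads methylated on day 0 and 7 of 552 and 12 of 655 on day 1. Col3a1, the chain of collagen III, had 10 of 15 and 8 of 18 treated reads methylated on day 0 and 0 of 12 and 7 of 27 on day 1. Both day 1 libraries were lower, with 12 to 27 reads in each of the 4. Without the enzyme it had 0 of 0 and 0 of 21 untreated reads methylated on day 0 and 1 of 46 and 0 of 15 on day 1. Col1a2 and Col5a2 had under 20 treated reads in at least 1 library.

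The basement membrane genes Col4a1 and Col4a2 (chr8:11198423-11312889 and chr8:11312805-11449287) lie head to head and encode the 2 chains of the common collagen IV. Col4a1 had 53 of 189 and 101 of 384 treated reads methylated on day 0 and 88 of 317 and 71 of 281 on day 1. Col4a2 had 99 of 355 and 81 of 327 treated reads methylated on day 0 and 121 of 439 and 145 of 499 on day 1. In both genes the days overlapped and all 8 values lay between 24.8% and 29.1%. The untreated libraries had 7 of 229 and 3 of 227 untreated reads methylated on day 0 and 2 of 416 and 8 of 384 on day 1 in Col4a1, and 11 of 323 and 5 of 267 untreated reads methylated on day 0 and 12 of 695 and 8 of 702 on day 1 in Col4a2. The 3 collagen VI genes did not move together. Col6a1 had 49 of 123 and 28 of 83 treated reads methylated on day 0 and 24 of 87 and 36 of 102 on day 1. Its days overlapped. Col6a2 had 26 of 104 and 11 of 51 treated reads methylated on day 0 and 22 of 46 and 32 of 107 on day 1, so both day 1 values were higher (38.9% ± 12.7 against 23.3% ± 2.43, SD, n = 2 each). Col6a3 (chr1:90766860-90844001), the longest of the 3 chains, had 54 of 208 and 27 of 96 treated reads methylated on day 0 and 46 of 144 and 83 of 196 on day 1, again higher on day 1 (37.1% ± 7.36 against 27.0% ± 1.53). Neither passed the edgeR test (adjusted p = 0.999 for both).

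Without the enzyme the collagen VI genes had few methylated reads. Col6a1 had 2 of 63 and 0 of 21 untreated reads methylated on day 0 and 2 of 200 and 0 of 124 on day 1. Col6a2 had 0 of 71 and 0 of 88 untreated reads methylated on day 0 and 2 of 170 and 3 of 105 on day 1. Col6a3 had 1 of 75 and 7 of 113 untreated reads methylated on day 0 and 2 of 185 and 3 of 281 on day 1, so that both day 1 values were lower, against higher treated ones. Col12a1, a collagen that coats fibrils, had 14 of 49 and 9 of 39 treated reads methylated on day 0 and 20 of 45 and 6 of 27 on day 1. One day 1 library was above and the other below both day 0 libraries. Its untreated libraries had 0 of 25 and 0 of 18 untreated reads methylated on day 0 and 1 of 54 and 0 of 89 on day 1.

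Of the elastic-fibre genes, Fbn1 (chr2:125300594-125506485) encodes fibrillin-1, the backbone of microfibrils. It had 34 of 135 and 40 of 217 treated reads methylated on day 0 and 83 of 284 and 72 of 244 on day 1. The day 1 libraries were almost equal and above both of day 0 (29.4% ± 0.200 against 21.8% ± 4.77, SD, n = 2 each). Its untreated libraries had 0 of 99 and 2 of 125 untreated reads methylated on day 0 and 4 of 483 and 0 of 398 on day 1. Fbln2 (chr6:91212460-91272540) had 83 of 250 and 102 of 332 treated reads methylated on day 0 and 90 of 325 and 78 of 291 on day 1, lower on day 1 (27.2% ± 0.628 against 32.0% ± 1.75). Neither gene passed the edgeR test (adjusted p = 0.999 for both). Fbln1 had 58 of 174 and 110 of 395 treated reads methylated on day 0 and 87 of 298 and 120 of 336 on day 1. Its untreated libraries had 7 of 236 and 2 of 201 untreated reads methylated on day 0 and 7 of 534 and 4 of 324 on day 1. The days overlapped, as they did in Fbln5 and Eln. Fbln5 had 18 of 66 and 25 of 69 treated reads methylated on day 0 and 9 of 42 and 45 of 116 on day 1. Eln, which encodes elastin, had 20 of 79 and 16 of 41 treated reads methylated on day 0 and 21 of 63 and 28 of 111 on day 1. The untreated libraries had 0 of 51 and 1 of 42 untreated reads methylated on day 0 and 0 of 69 and 0 of 64 on day 1 in Fbln5, and 3 of 76 and 0 of 39 untreated reads methylated on day 0 and 2 of 219 and 1 of 77 on day 1 in Eln.

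Among the glycoproteins, Fn1 (chr1:71585473-71653280) had 11 of 42 and 22 of 75 treated reads methylated on day 0 and 42 of 144 and 30 of 114 on day 1. Its mean was 27.8% ± 2.22 on day 0 and 27.7% ± 2.02 on day 1 (SD, n = 2 each). Thbs2 had 35 of 106 and 18 of 57 treated reads methylated on day 0 and 42 of 123 and 58 of 192 on day 1. The day differences were -0.0207 and -0.122 percentage points, far below the gaps between replicates. Untreated Thbs2 had 1 of 54 and 6 of 73 untreated reads methylated on day 0 and 2 of 170 and 2 of 166 on day 1. Postn, Tnc, Thbs1 and Sparc, which encode periostin, tenascin-C, thrombospondin-1 and osteonectin, had from 6 to 81 treated reads per library and fell short of 20 in at least 1. Sparc had 14 of 45 and 1 of 9 treated reads methylated on day 0 and 19 of 58 and 20 of 42 on day 1, higher on day 1, with 9 reads in 1 of the libraries. Without the enzyme Sparc had 0 of 35 and 0 of 33 untreated reads methylated on day 0 and 1 of 50 and 1 of 125 on day 1.

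The remaining genes with enough reads are enzymes, inhibitors, receptors and actin. Loxl1, which cross-links elastin, had 30 of 119 and 12 of 40 treated reads methylated on day 0 and 6 of 21 and 26 of 69 on day 1. Mmp2, a gelatinase, had 12 of 57 and 26 of 48 treated reads methylated on day 0 and 14 of 51 and 14 of 33 on day 1. Its day 0 libraries lay 33.1 percentage points apart, the widest gap among the 21 genes on that day. Timp2 (chr11:118301061-118355411) had 17 of 76 and 29 of 76 treated reads methylated on day 0 and 54 of 188 and 84 of 288 on day 1. All 3 overlapped between the days. Pdgfra, the PDGF receptor that marks many fibroblasts, had 17 of 54 and 7 of 39 treated reads methylated on day 0 and 23 of 63 and 10 of 42 on day 1. Ddr2 (chr1:169972307-170110836) had 6 of 21 and 38 of 121 treated reads methylated on day 0 and 25 of 122 and 49 of 200 on day 1, lower on day 1 (22.5% ± 2.83 against 30.0% ± 2.004). Acta2 had 5 of 24 and 7 of 27 treated reads methylated on day 0 and 4 of 21 and 13 of 24 on day 1. Its day 1 libraries lay 35.1 points apart and enclosed those of day 0. In the untreated libraries Loxl1 had 1 of 68 and 0 of 87 untreated reads methylated on day 0 and 1 of 45 and 1 of 85 on day 1. Mmp2 had 3 of 72 and 1 of 42 untreated reads methylated on day 0 and 3 of 84 and 5 of 97 on day 1. Timp2 had 1 of 79 and 4 of 152 untreated reads methylated on day 0 and 5 of 270 and 4 of 281 on day 1. Pdgfra had 0 of 42 and 2 of 42 untreated reads methylated on day 0 and 2 of 117 and 2 of 54 on day 1, and Ddr2 had 1 of 66 and 2 of 67 untreated reads methylated on day 0 and 2 of 343 and 7 of 261 on day 1. Acta2 had 0 of 6 and 0 of 0 untreated reads methylated on day 0 and 0 of 9 and 0 of 26 on day 1.

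The other 19 genes had under 20 reads in at least 1 treated library, and 10 of them had 0 in at least 1. The proteoglycans were the least covered: Dcn (decorin), Lum (lumican) and Bgn (biglycan), which coat or space collagen fibrils, together had 15 and 0 treated reads on day 0 and 30 and 27 on day 1. At the other end, 5 or 6 genes held at least 50% of all reads over the 40 loci in each group, led by Col4a2, Col5a1, Fbln2, Fbln1 and Col4a1. The pooled locus level is therefore mostly that of long collagen and fibulin genes.

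Pooled by role over the loci, 4 of the roles separated the treated libraries of the 2 days. The others overlapped or lacked reads in a library. Each separation had p = 0.33 in the exact permutation test, the smallest it can give. Of 7731 single genes with 20 reads in each treated library, 35.2% separated. The non-fibrillar collagens were higher on day 1 (28.5% and 26.2%, then 29.1% and 30.6%), and so were the cross-linking enzymes Lox and Loxl1 (25.2% and 30.0%, then 33.3% and 37.0%). The day 0 reads of the last pair were all from Loxl1, since Lox had no treated read on day 0 and 2 of 3 and 4 of 12 on day 1, and Loxl1 alone overlapped between the days. The cytoskeletal and contractile genes were lower (47.0% and 52.2%, then 29.4% and 39.7%), as were the receptors (28.6% and 33.6%, then 27.6% and 27.7%). Of the 133 cytoskeletal locus reads on day 0, 85 were the end reads given above, as were 93 of 207 on day 1. Single genes did not all follow. The day differences were 13.2 percentage points in Acta2, 5.44 in Pdgfra and 12.1 in Pdgfrb, whose days overlapped, and -7.49 in Ddr2. Vim, S100a4, Tagln and Thy1 had no reads in at least 1 treated library. Fibrillar collagens, elastic-fibre genes, glycoproteins and proteases with their inhibitors overlapped. In the untreated libraries the non-fibrillar collagens went from 2.96% and 2.14% to 1.20% and 1.32%.

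All 18 genes tested were marked by the enzyme on both days. On day 0 edgeR called 18 of 18 higher with the enzyme (98.8% of 5655 loci), from 3.04 in Thbs2 to 8.11 in Col6a2 on the log2 odds scale, with a median of 4.14 against 4.38 over all loci. On day 1 it called 18 of 18 (99.9% of 5655), from 3.42 in Mmp2 to 9.04 in Fn1, with a median of 5.01 against 5.51. These sizes also carry the untreated level: Col6a2 on day 0 and Fn1 on day 1 had 0 methylated reads without the enzyme.

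Among the untreated libraries 2 of the 40 genes changed, Fn1 and Fbln2, both lower on day 1. In Fn1 8 of 168 and 2 of 90 reads were methylated on day 0 and 0 of 286 and 0 of 175 on day 1. Over the group this is 3.88% on day 0 and 0 of 461 reads on day 1, which would allow up to 0.651% if reads were independent. Set against that limit, day 1 was 5.96-fold lower than the pooled day 0 level. Without the first untreated library of day 0, where 2 of 90 reads remain, it was 3.41-fold lower. Without the first and second of day 1 it was 2.26-fold and 3.70-fold lower. These folds carry no error for day 0. They are not lower bounds, since reads of the same fragment are not independent. In Fbln2 5 of 265 and 12 of 363 reads were methylated on day 0 and 3 of 451 and 1 of 472 on day 1, or 2.71% and 0.433%, 6.25-fold lower. The fold was 12.8 without the first untreated library of day 1, which leaves 1 methylated read, and 4.07 without the second. edgeR called 3.19% of 7993 loci (3.18% lower and 0.0125% higher), and of the 21 genes of the list it tested it called 2 lower and 0 higher (adjusted p = 0.0122 for Fn1 and 0.0173 for Fbln2). The fitted changes were -5.76 and -2.54 on the log2 odds scale. The first depends on the prior count added to a day 1 level of 0 and is no bound.

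Most loci were lower on day 1. In the edgeR fit 16 of the 21 genes and 72.1% of all loci had lower fitted odds on day 1, with medians of -0.81 and -0.96. With each library centred on its own median, which moves the median of all loci by that amount, limma gave changes of -2.25 for Fn1 and -1.21 for Fbln2, against -3.29 and -2.25 without centring, and called neither gene (adjusted p = 0.17 and 0.34). Fitted on the 4 untreated libraries alone, edgeR called neither (0.24 and 0.40). Leaving out the first untreated library of day 0 or of day 1 ended the call of Fn1 (adjusted p in edgeR 0.23 and 0.13). That of Fbln2 ended without the second untreated library of day 0 (0.35) or of day 1 (0.18), and without either treated library of day 1 (0.061 and 0.058).

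Of the 24 genes with at least 10 reads in each untreated library, both day 1 libraries were below both day 0 ones in 6 (Col4a2, Col6a3, Col8a1, Fbln2, Fn1 and Thbs2), against 24.6% of 10512 genes. They were above in 2 (Col6a2 and Sparc), against 5.4%. Both shares are near those of all genes. Untreated methylated reads were found in 23 of the 40 genes on day 0 and 25 on day 1.

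**Figure D5:**
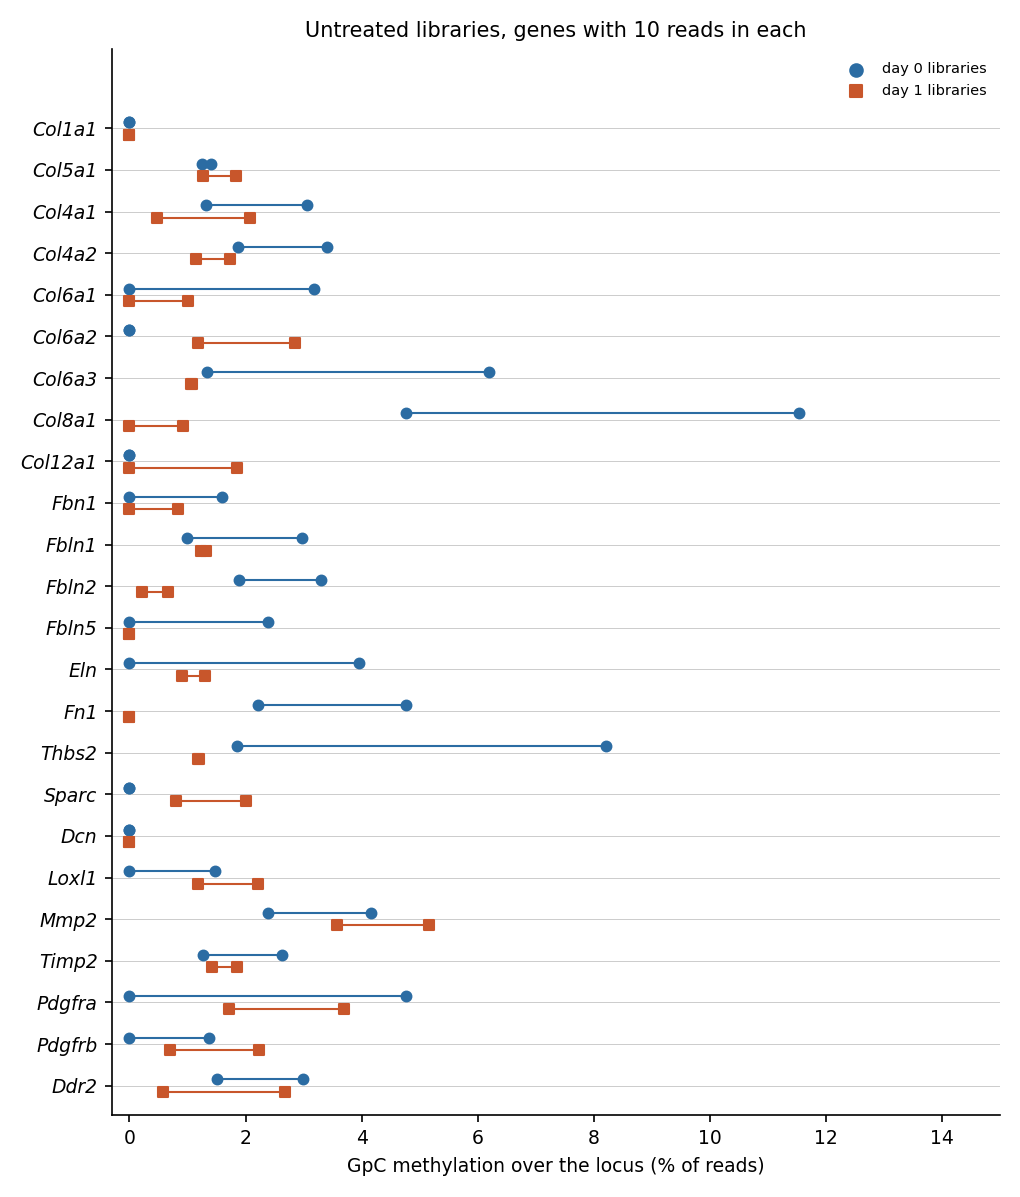
GpC methylation over the locus (% of reads) in the 4 untreated libraries for the 24 genes with at least 10 reads in each, with day 0 as circles and day 1 as squares and a line joining the 2 libraries of a day. Fn1 lies at 0 in both day 1 libraries and Fbln2 under 1%, and the highest day 0 values belong to Col8a1, Thbs2 and Col6a3.

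The treated and untreated day changes were also set against each other in a test added after the values were seen. edgeR called 3.54% of 5655 loci, all with a treated minus untreated change above 0, and of the 18 genes it called Fn1 (5.75 on the log2 odds scale, adjusted p = 0.0305). The treated means of Fn1 were 27.8% and 27.7%, and its untreated group levels were 3.88% and 0. limma did not call it (adjusted p = 0.072).

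Genes of the same pathway outside the list were counted in the same way. Of 37 genes of collagen processing, integrins and TGF-beta signalling, 17 were tested between the days and 0 were called in either direction (1 at an unadjusted p under 0.05), with a median log2 odds change of 0.03. In the untreated libraries 0 of the 20 tested were called (3 at an unadjusted p under 0.05), with a median of -1.21. Both enzyme comparisons called 17 of 17. Their pooled ends were at 43.3% and 55.6% on day 0 and 33.5% and 42.2% on day 1. The days did not overlap, as in the 40 genes, and the groups share no gene but the same libraries. Taken singly, each of these lists overlapped between the days. The treated end difference was -5.27 percentage points in collagen processing, 0.192 in integrins and -16.7 in TGF-beta signalling. The ends of 24 endothelial genes, the fate that Etv2 drives, were at 38.4% ± 5.53 and 32.5% ± 9.21 (SD, n = 2 each) and overlapped. Those of 25 mesenchymal and AP-1 transcription factor genes were at 41.4% ± 3.62 and 42.3% ± 1.72, while their loci went from 34.3% ± 0.273 to 29.0% ± 1.34.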

How the data were processed

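NOMe-seq libraries of mouse embryonic fibroblasts were analysed from the files the authors deposited, which list 1 cytosine per line with the fraction of reads methylated and the count of reads. Both deposited columns lack a header, and their units were read from the values: fraction times count is a whole number within rounding, and the fewest reads at a site are 3. The build is mm10, per the submitters' processing notes. For the aligner, the methylation caller, the site filter and the treatment of duplicates or molecular identifiers, the answer is not given in the sources used here. Which cytosines are listed differs between libraries.

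Methylated reads are the rounded product of fraction and count. Sites with more than 100 reads were left out (0 of them in the 40 genes, whose deepest site had 6 reads). Gene coordinates came from a RefSeq table of the same build without strand. Strand came from the RefSeq promoter table, which has 25 of the 40 genes. Groups were compared by pooled levels with exact two-sided permutation tests. Methylated and unmethylated counts per locus were fitted in edgeR 4.0.16 (R 4.3.3) over all 8 libraries, with a mean per group, a library effect and a Benjamini-Hochberg threshold of 0.05, for loci with at least 20 reads in each library (10 for the untreated comparison). At gene ends only 43 genes, none of the 40, had 20 reads in each library. limma 3.58.1 on log2 odds with a pseudocount of 1 was an alternative. The fits were tested on simulated data. Python 3.11.15 with pandas 2.3.3 and scipy 1.17.1 did the rest.

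Named with values in every library are genes with 20 reads in each treated library, genes called in any fit, genes holding at least 10% of a group's end reads, and genes whose treated libraries of the 2 days do not overlap. Other genes named were picked out after their values were seen. The members and lists were chosen with earlier results of these data known. Replicate numbers do not pair the libraries: the correlation over 5655 loci of the replicate differences of 2 groups ran from -0.0242 to 0.0191.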

Additional observations from a re-analysis of the deposited data

Results flagged for a closer look

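Fn1, which encodes fibronectin, had day changes in the treated and untreated libraries that differed by 5.75 on the log2 odds scale in edgeR (adjusted p = 0.0305, 8 libraries). Treated reads were methylated at 27.8% and 27.7% on the 2 days, while the untreated ones went from 10 of 258 to 0 of 461. The call was not made by limma (adjusted p = 0.072), nor in 7 of the 8 fits that left out 1 library.

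The non-fibrillar collagens moved in opposite directions over their loci: both treated day 1 libraries were above both of day 0 and both untreated ones below, and the 2 changes were 3.77 percentage points apart. The exact permutation p was 0.056, the smallest this design can give, and it is 1 of 14 such values by role and region (Benjamini-Hochberg adjusted p = 0.52). Protein-coding loci as a whole had the same p, with 2.17 percentage points.

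Col6a3, a collagen VI chain, did the same alone: treated reads went from 54 of 208 and 27 of 96 methylated to 46 of 144 and 83 of 196, and untreated ones from 1 of 75 and 7 of 113 to 2 of 185 and 3 of 281. The 2 changes were 12.8 percentage points apart. On the log2 odds scale edgeR put the difference at 2.62 and did not call it (adjusted p = 0.16).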

How the results depend on the processing

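Depth limits most values here: at the gene ends none of the 40 genes had 20 reads in every library. The pooled enzyme effects at loci and ends kept their direction under every alternative that gave a value. Sites of at least 5 reads gave no value at the ends, and over the loci turned the treated day difference to -4.85 percentage points and the treated minus untreated change to -3.02. The treated locus difference was also below 0 without Col6a3 (-0.0476, chosen after seeing the data) and, without each library in turn, ran from -0.541 (without the second treated library of day 0) to 1.43. At the ends the untreated day difference ran from -1.53 to 0.179 (without the first untreated library of day 0), and the treated one from -12.2 to -8.84. Weighting genes equally turned the treated end difference to 6.89 (2 genes that moved in opposite directions). It turned the treated minus untreated one to 43.97 (1 gene), and the 1 window of 1 kb read in all 4 groups gave 23.1 for the latter. The cause was not tested.

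Calls by edgeR between the treated days went from 0 to 3 of 7731 loci with only the 4 treated libraries, none among the 40 genes. At the ends they went to 4 of 127 genes with only those libraries, and to 1 with a minimum of 5 reads. None of the 40 genes had the reads to be tested at the ends in any of these fits. Enzyme calls followed the number of loci tested: 9692 and 10402 on day 0 and day 1 with a minimum of 5 reads, 3277 and 3280 with 40, and 10133 on day 1 with only its 4 libraries. Centring each library on its median in limma removes the enzyme effect by construction and left 8 and 6 loci, with 0 of the 18 genes. Untreated calls were 1011 with limma, 8 with only the 4 untreated libraries and 7 after centring (0 of the 40 genes in the last 2, against 2), and 108 to 174 without each library, with 1 or 2 of the 40 genes. The added treated minus untreated comparison called 1 locus with limma, 0 after centring, and 14 to 195 without each library. With a library left out, it called Fn1 only without the second untreated library of day 0 (adjusted p = 0.0225) and Fbln2 without the first (0.0476), so 0 or 1 of the 18 genes, and with the replicate block, limma or centring 0 of 18.

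Since the labels give same-numbered libraries only a shared number, the replicate block has no stated design behind it. With it, 0 treated loci, 5568 and 5649 enzyme loci and 192 untreated loci were called (135 in the added comparison), with 0, 18, 18 and 2 of the 40 genes. A limit on reads per site changed no value of the 40 genes.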

Other observations

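Most cytosines of the 40 loci had exactly 3 reads. Whether open and closed DNA were mixed at single sites was not tested. In the first treated library of day 0, 36.8% of these cytosines had 0, 40.9% had 1, 18.02% had 2 and 4.35% had all 3 reads methylated. The second treated library of day 1 had 35.2%, 42.0%, 19.5% and 3.30%. Shares over all listed cytosines with 3 reads were near these. They were 38.4%, 40.7%, 17.4% and 3.46% in the first treated library of day 0. In the second treated library of day 1 they were 36.2%, 41.5%, 18.7% and 3.65%. In the untreated libraries no cytosine of the 40 loci with 3 reads had 2 methylated, and 1 library (the second of day 1) had any with all 3 (0.0650%). Over cytosines of any depth in the 4 untreated libraries, 238 had 1 methylated read and 5 had more, so that 95.6% of the 249 methylated reads stood alone at their cytosine.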
